A study of Homo sapiens with 12 samples.

Results

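Iron storage, uptake and sensing genes were followed in SH-SY5Y, a human neuroblastoma line of sympathoadrenal origin, after a short exposure to HPPE or to a metal protoporphyrin. The set held 10 genes, chosen by name among the 60710 gene entries of the deposited count table: FTH1, FTL, NCOA4 and PCBP1 for storage, TFRC, STEAP3 and SLC11A2 for uptake, SLC40A1 for export, and ACO1 and IREB2 for sensing. Each symbol matched 1 Ensembl identifier, and all 10 genes passed the filter on low counts. The 12 libraries were 3 each of SH-SY5Y cells given DMSO alone, HPPE at 5 µM, zinc protoporphyrin at 5 µM or tin protoporphyrin at 5 µM. Every well, controls included, held 2 mL of serum-containing medium and took up 10 µL of DMSO, and lysis followed after 5 h. Zinc and tin protoporphyrin share the porphyrin ring of heme and differ from each other in the metal it holds. HPPE is given by its code name only. The labels number the libraries of a group 1 to 3 without saying whether they came from separate cultures, so the p-values below measure the spread between these libraries, which may be technical.

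Iron enters most cells bound to transferrin through the transferrin receptor, is reduced and released from the endosome, and is then used, exported through ferroportin or stored inside ferritin, a shell of heavy and light chains. The iron regulatory proteins encoded by ACO1 and IREB2 read cytosolic iron: when iron is scarce they bind hairpins called iron-responsive elements, which blocks translation of mRNAs that carry one in the 5′ UTR and protects the transferrin receptor mRNA, which carries several in its 3′ UTR. Ferritin genes are also known targets of NRF2, a transcription factor of the oxidative stress response, and heme oxygenase 1, encoded by HMOX1, frees iron from heme. These libraries measured mRNA, so translation and protein were not measured.

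The iron-responsive elements are shown first because they are the sequence feature by which ferritin, ferroportin and transferrin receptor mRNAs are jointly controlled. GENCODE 29 transcripts (GRCh38) were searched for a bulged C, an upper stem of 5 pairs (G with T pairs allowed), the loop CAGTGN with A, C or T in its last place, and at least 4 pairs in a lower stem of 6 bases. The pattern stood in a UTR of 4 of the 10 genes. Over 19669 protein-coding genes it was found in 32 (0.163%), with 6 genes carrying it in a 5′ UTR (0.0305%) and 16 in a 3′ UTR (0.0813%). Each sequence has 29 bases, is written 5′ to 3′ on the strand of its gene with T for U, and has the loop in capitals.
FTH1, 5′ UTR: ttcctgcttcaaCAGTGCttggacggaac
FTL, 5′ UTR: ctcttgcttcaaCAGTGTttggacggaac
SLC40A1, 5′ UTR: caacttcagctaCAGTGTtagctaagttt
TFRC, 3′ UTR, element A: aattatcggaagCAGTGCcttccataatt
TFRC, 3′ UTR, element B: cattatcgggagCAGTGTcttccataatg
TFRC, 3′ UTR, element C: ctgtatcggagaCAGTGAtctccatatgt
TFRC, 3′ UTR, element D: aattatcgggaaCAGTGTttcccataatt

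The elements of FTH1 (exon 1, chr11:61967574-61967602, minus strand) and FTL (exon 1, chr19:48965335-48965363, plus strand) were identical at 26 of 29 bases. The SLC40A1 element (exon 1, chr2:189580661-189580689, minus strand) matched the FTH1 element at 13 bases. The 4 TFRC elements found lay in exon 19, the last exon, between positions 196050463 and 196051007 of chromosome 3, on the minus strand, and element A shared 25, 19 and 24 bases with elements B, C and D. The letters A to D only number these matches in their order along the transcript. They are not the established names of the TFRC elements, and an element that departs from the pattern would be missed. In the other 6 genes no match was found, which says only that these letters in this arrangement were not in the transcripts searched. It does not show that any of them, SLC11A2 included, lacks an iron-responsive element of another form.

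With HPPE, mRNA of both ferritin chains and of the transferrin receptor rose against DMSO. FTH1, the ferritin heavy chain with ferroxidase activity, rose 1.99-fold, FTL, the light chain that favours mineral growth, rose 1.57-fold, and TFRC rose 1.24-fold. The other 7 genes did not pass the test, and with zinc or tin protoporphyrin none of the 10 passed. In counts, 3 of 10 genes were called higher with HPPE (edgeR quasi-likelihood test, Benjamini-Hochberg adjusted p under 0.05 over 16366 tested genes), where 4.04% of all tested genes were called in either direction and 2.57% were called higher. This count fell to 1 of 10, FTH1, without DMSO library 1, DMSO library 2, HPPE library 2 or HPPE library 3, and with HPPE libraries 2 and 3 summed. Calls among all tested genes were 286, 291, 284, 331 and 384 in the same order, where all 12 separate libraries gave 662. Against DMSO, 0 of 10 were called with zinc protoporphyrin (background 2.25%) and 0 of 10 with tin protoporphyrin (background 2.28%). At an unadjusted p under 0.05 these last counts were 0 and 1, and DESeq2 called 0 in both. Among all 16366 tested genes, 3051 with zinc and 2410 with tin protoporphyrin had an unadjusted p under 0.05. The CPM ranges of the 3 libraries did not overlap those of DMSO for 3 genes with HPPE, 0 with zinc protoporphyrin and 1 with tin protoporphyrin, where the share among all tested genes was 21.4%, 22% and 17.9%. The choice of these genes was made with earlier results on the same libraries known, so the counts describe the set and are not independent support.

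**Figure D1:**
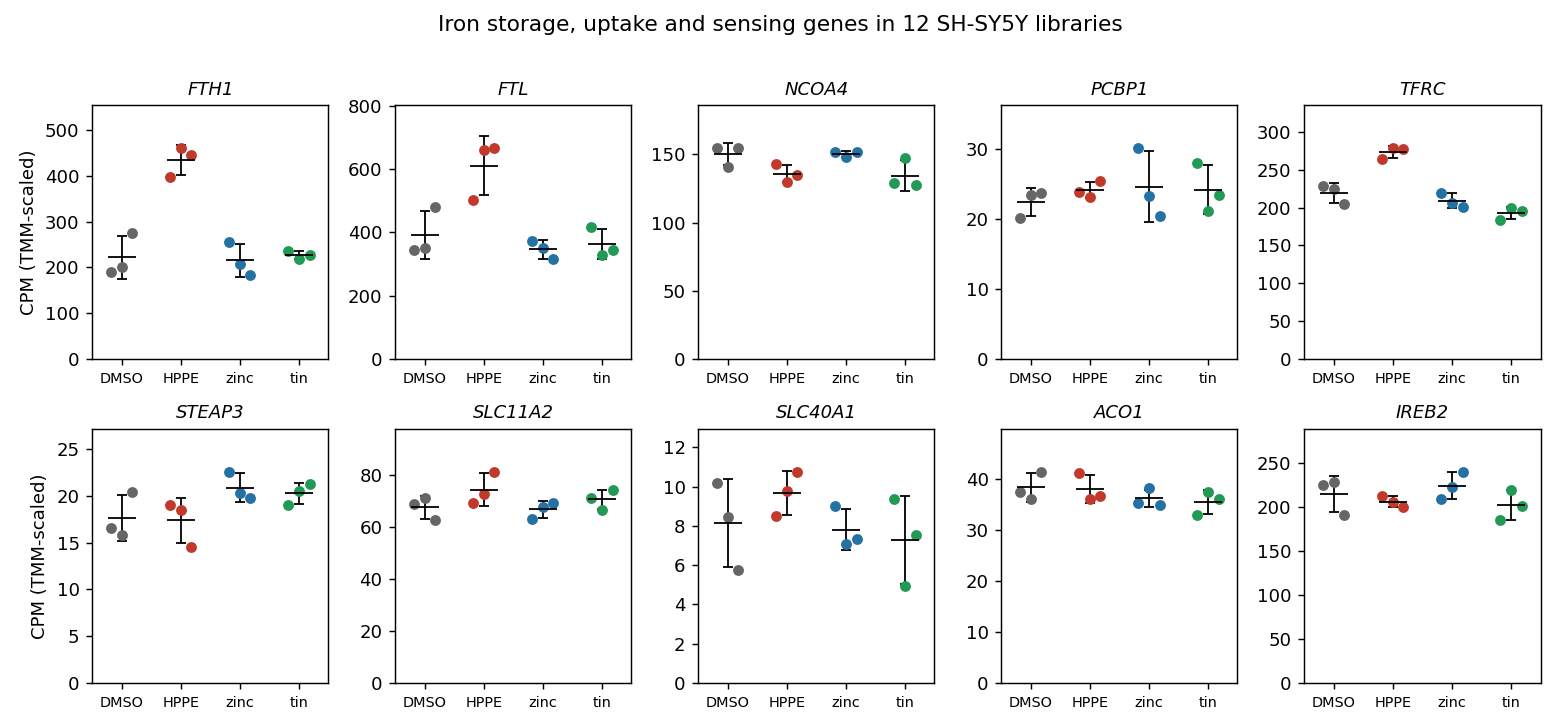
Level of each of the 10 genes in every library, in CPM (counts per 1e6 counts, with TMM scaling) (y axes from 0), by treatment (x axis: DMSO, HPPE, zinc and tin protoporphyrin). Points are libraries 1 to 3 from left to right, and bars are the mean and SD of 3; the HPPE points of FTH1, FTL and TFRC lie above all others, while the remaining 7 panels show overlapping groups against DMSO.

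Levels are given as CPM, counts per 1e6 counts of a library after TMM scaling, the trimmed mean of M values that sets libraries on a common scale. Total counts ran from 1337028 to 9145399 per library. DMSO library 3 (1514595) and zinc protoporphyrin library 1 (1337028) were the shallowest, and among the 10 genes the lowest single count was 9, for SLC40A1. HPPE libraries 2 and 3 were closer to each other than any other pair of a group (chi-square per degree of freedom 1.13, against 1.55 to 20.3) but still differed beyond counting noise, and they were kept as separate libraries. The deviation of a library from the gene means trended with transcript length over 10952 genes, with a mean Spearman rho of 0.06 ± 0.46 with DMSO, -0.34 ± 0.21 with HPPE, 0.39 ± 0.17 with zinc protoporphyrin and -0.07 ± 0.54 with tin protoporphyrin (SD, n = 3). Of 10 sympathoadrenal markers 9 passed the filter, with summed levels of 4415 to 4622 CPM with DMSO, 4165 to 4182 with HPPE, 3827 to 4288 with zinc and 4134 to 4274 with tin protoporphyrin, and TH was at 0 in 8 libraries. Of 6 mesenchymal markers 5 passed, with summed levels of 702.5 to 789.2 CPM with DMSO, 824.7 to 847.3 with HPPE, 768.2 to 869.6 with zinc and 887.6 to 925.9 with tin protoporphyrin, and the part of either list in the results was not tested. None of 4 leukocyte or 4 erythroid markers passed, 1 of 4 epithelial markers did (EPCAM), and HBA1 and HBB were at 0 in all 12 libraries. In bulk RNA, fewer cells expressing a gene and less RNA per cell cannot be told apart.

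Before any treatment effect, the 10 genes spanned a wide range of levels in DMSO, compared here as CPM per kb of the longest GENCODE transcript. FTL stood at 446.6 ± 87.2 CPM per kb and FTH1 at 180.7 ± 38.1 (SD, n = 3). TFRC followed at 43.0 ± 2.5 and NCOA4 at 42.3 ± 2.3, and only these neighbours in the order had overlapping libraries. IREB2 came next at 33.8 ± 3.3, then SLC11A2 at 15.5 ± 1.0 and PCBP1 at 12.8 ± 1.1, a level that is uncertain for a reason of counting given below. The lowest were ACO1 at 5.14 ± 0.37, STEAP3 at 4.13 ± 0.58 and SLC40A1 at 2.36 ± 0.65 CPM per kb. Per kb, ferritin mRNA was thus the most abundant of the set, and ferroportin mRNA the least. Without division by length, FTH1 was at 222.1 ± 46.8 CPM, TFRC at 219.5 ± 12.9 and IREB2 at 214.7 ± 20.8 (SD, n = 3). The gap of FTH1 over TFRC and IREB2 thus rests on the lengths used.

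FTH1 (ENSG00000167996.16, chr11:61959718-61967660, minus strand, GRCh38) measured 189.3, 201.3 and 275.7 CPM in DMSO libraries 1 to 3 and 396.8, 461.4 and 445.5 CPM in HPPE libraries 1 to 3. It measured 255.2, 208.4 and 183.0 CPM with zinc protoporphyrin and 235.4, 218.1 and 228.2 CPM with tin protoporphyrin. All 3 HPPE libraries lay above all 9 others, and the groups below HPPE overlapped one another. The highest DMSO and the highest zinc protoporphyrin values were those of the shallowest library of each group. The log2 fold change was 0.99 ± 0.13 (SE; 95% interval 0.73 to 1.26; edgeR adjusted p = 0.000153) for HPPE against DMSO. The change was as large without both shallow libraries, at 1.15, and was 0.91 after correction of each library for transcript length and GC content.

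FTL (ENSG00000087086.15, chr19:48965301-48966878, plus strand) measured 345.9, 350.0 and 480.5 CPM with DMSO and 502.5, 659.7 and 667.5 CPM with HPPE. The values were 374.2, 351.2 and 315.7 CPM with zinc protoporphyrin and 416.7, 327.5 and 345.4 CPM with tin protoporphyrin. HPPE was again above every other library, but HPPE library 1 exceeded DMSO library 3 by little. The log2 fold change for HPPE against DMSO was 0.65 ± 0.14 (SE; 95% interval 0.36 to 0.94; edgeR adjusted p = 0.0104), and 0.57 with the length and GC correction. The call was lost without DMSO library 1 (0.56; adjusted p = 0.0884), DMSO library 2 (0.58; 0.0851), HPPE library 2 (0.58; 0.0792) or HPPE library 3 (0.59; 0.0611), and with HPPE libraries 2 and 3 summed (0.59; 0.0585). Without DMSO library 3 the log2 fold change was 0.81 (adjusted p = 0.001).

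Taken as a sum, FTH1 and FTL made up 614.2 ± 123 CPM with DMSO, 1044 ± 126 with HPPE, 562.6 ± 65.5 with zinc protoporphyrin and 590.4 ± 55.2 with tin protoporphyrin (SD, n = 3). The balance between the chains, which differs between tissues, was compared as the ratio of counts within a library, a value that does not depend on library scaling. It was 0.565 ± 0.016 with DMSO and 0.719 ± 0.063 with HPPE (SD, n = 3). All HPPE ratios (0.667 to 0.790) lay above all DMSO ratios (0.547 to 0.575), with an exact two-sided permutation p of 0.1, the smallest that 3 against 3 libraries can give. The ratio was 0.618 ± 0.056 with zinc protoporphyrin, also above every DMSO library (exact permutation p = 0.1), and 0.631 ± 0.057 with tin protoporphyrin, which overlapped DMSO (exact permutation p = 0.3). With 3 libraries a group, none of these ratio differences could reach the 0.05 threshold.

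Both ferritin genes have many processed pseudogenes, and how reads with several matches were counted is not given in the sources used here. The table lists 25 entries named as FTH1 pseudogenes, which held 2.01% to 4.16% of the counts of FTH1 and its pseudogenes together in a library. The 16 entries named as FTL pseudogenes held 0.66% to 1.39%. FTLP3 rose with HPPE from 2.52 to 5.05 CPM (log2 fold change 1.11; edgeR adjusted p = 0.0165), and FTH1P2 measured 3.33 CPM with HPPE and 1.61 with DMSO (1.10; adjusted p = 0.121). Reads of these entries cannot be told apart from misplaced reads of the parent genes. With the pseudogene counts added to their parents, FTH1 stood at 0.98 and FTL at 0.65 for HPPE against DMSO, both still called.

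NCOA4 (ENSG00000266412.6, chr10:46005088-46030714, minus strand), the receptor that carries ferritin to the lysosome for release of its iron, measured 154.8, 140.7 and 154.4 CPM with DMSO and 142.8, 129.9 and 134.9 CPM with HPPE. Its values were 151.3, 147.7 and 151.5 CPM with zinc protoporphyrin and 128.7, 147.3 and 127.2 CPM with tin protoporphyrin. The log2 fold change was -0.14 ± 0.08 (SE; 95% interval -0.31 to 0.03) for HPPE against DMSO and did not pass the test. PCBP1 (ENSG00000169564.7, chr2:70087454-70089203, plus strand), a chaperone that hands iron to ferritin, ranged from 20.1 to 30.1 CPM over the 12 libraries. Its log2 fold changes against DMSO were 0.11 with HPPE, 0.06 with zinc and 0.13 with tin protoporphyrin, none of which passed. PCBP1 has an antisense partner, PCBP1-AS1, at a mean of 20.8 CPM with DMSO, and the use of strand in counting is not given in the sources used here, so the split between the pair is uncertain. Reads that overlap both may also have been left out, so the level of PCBP1 is uncertain too. The genes that empty and fill ferritin thus showed no called change while its subunits rose with HPPE.

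TFRC (ENSG00000072274.13, chr3:196027183-196082189, minus strand), the transferrin receptor, measured 228.9, 224.9 and 204.8 CPM with DMSO and 264.5, 279.1 and 277.4 CPM with HPPE. The values were 219.9, 206.6 and 200.5 CPM with zinc protoporphyrin and 183.6, 199.6 and 195.0 CPM with tin protoporphyrin. HPPE libraries lay above all others, tin protoporphyrin libraries lay below all others, and zinc protoporphyrin overlapped DMSO. The log2 fold change for HPPE against DMSO was 0.31 ± 0.08 (SE; 95% interval 0.15 to 0.47; edgeR adjusted p = 0.0254), and 0.32 with the length and GC correction. The call was lost in 10 of 25 alternatives, among them the removal of DMSO library 1 or 2, of HPPE library 1, 2 or 3 or of tin protoporphyrin library 3 (adjusted p 0.0522 to 0.153), while the log2 fold change stayed between 0.27 and 0.33. It was also lost with both shallow libraries left out (0.27; adjusted p = 0.054), with HPPE libraries 2 and 3 summed (adjusted p = 0.0972), without a filter (adjusted p = 0.0545) and with the replicate number as a block (adjusted p = 0.0653). With tin protoporphyrin the log2 fold change was -0.20 ± 0.08 (95% interval -0.35 to -0.04), which missed the threshold (unadjusted p = 0.0187, edgeR adjusted p = 0.227). That tin protoporphyrin value was -0.16 to -0.24 over the alternatives, and passed only with the library axis as a covariate (edgeR adjusted p = 0.00429). The axis is computed from the spread of these same libraries within their groups, so that p-value can be too small.

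TFRC and FTH1 are commonly set side by side because the iron regulatory proteins move their products in opposite directions. Here both mRNAs rose with HPPE, but by different amounts. The TFRC count per FTH1 count was 1.21, 1.12 and 0.743 in DMSO libraries 1 to 3 and 0.667, 0.605 and 0.623 in HPPE libraries 1 to 3, so that all HPPE ratios lay below all DMSO ratios (exact two-sided permutation p = 0.1, the smallest possible). The mean was 1.02 ± 0.25 with DMSO and 0.631 ± 0.032 with HPPE (SD, n = 3). With zinc protoporphyrin it was 0.983 ± 0.118 (exact permutation p = 0.9 against DMSO) and with tin protoporphyrin 0.850 ± 0.068 (exact permutation p = 0.4), both overlapping DMSO. The longest transcript has 5111 bases for TFRC and 1229 for FTH1, so the TFRC to FTH1 ratio can move with a library's length trend. Within every group the libraries ranked alike by this ratio and by the rho of that trend. That rho had a mean of 0.06 with DMSO and -0.34 with HPPE. The ratio was not corrected for length. With the length and GC correction the separate log2 fold changes for HPPE against DMSO were 0.91 for FTH1 and 0.32 for TFRC.

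**Figure D2:**
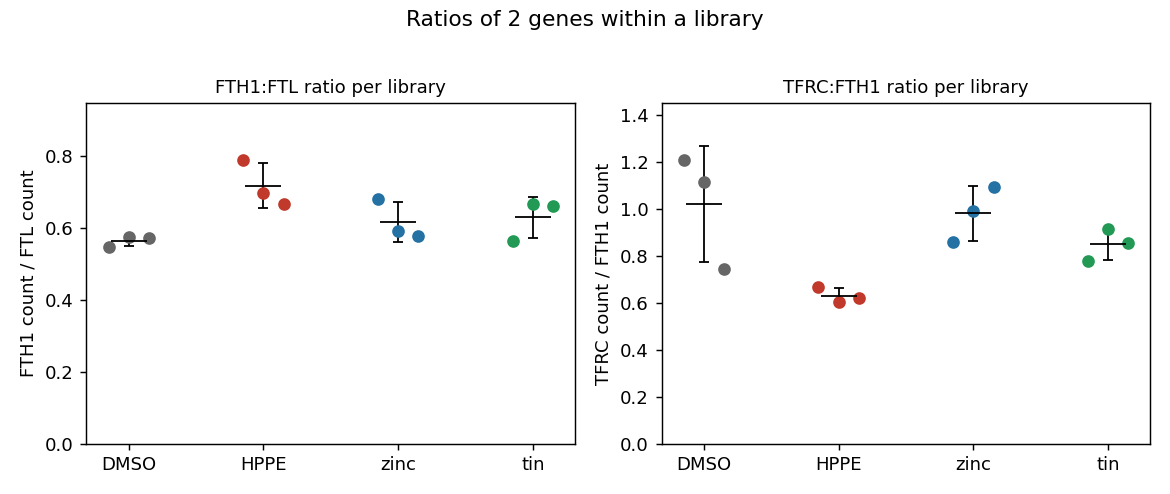
Ratio of FTH1 to FTL counts (left) and of TFRC to FTH1 counts (right) within each library (y axes from 0) by treatment (x axis), with points for libraries 1 to 3 and bars for the mean and SD of 3. HPPE libraries have FTH1:FTL ratios of 0.667 to 0.790 against 0.547 to 0.575 with DMSO, and the lowest TFRC:FTH1 ratios. The ratios are not corrected for transcript length.

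The other uptake and export genes did not pass the test in any comparison with DMSO. STEAP3 (ENSG00000115107.20, chr2:119223831-119265652, plus strand), an endosomal ferrireductase, measured 16.5, 15.8 and 20.4 CPM with DMSO, 19.0, 18.5 and 14.6 with HPPE, 22.6, 20.3 and 19.7 with zinc protoporphyrin and 19.0, 20.5 and 21.3 with tin protoporphyrin. Its log2 fold changes against DMSO were 0.08 with HPPE, 0.27 (95% interval -0.02 to 0.56) with zinc and 0.26 (-0.01 to 0.54) with tin protoporphyrin, and none passed. SLC11A2 (ENSG00000110911.17, chr12:50979401-51028566, minus strand), the divalent metal transporter that moves iron out of the endosome, ranged from 62.5 to 81.4 CPM, with its highest value in HPPE library 3. Its log2 fold changes were 0.11, -0.02 and 0.04 with HPPE, zinc and tin protoporphyrin. SLC40A1 (ENSG00000138449.11, chr2:189560579-189583758, minus strand), the iron exporter ferroportin, was the lowest of the set per kb, and measured 10.2, 8.45 and 5.74 CPM with DMSO and 8.5, 9.79 and 10.8 CPM with HPPE. Its log2 fold changes were 0.11 with HPPE (95% interval -0.36 to 0.57), -0.25 with zinc (-0.75 to 0.25) and -0.28 with tin protoporphyrin (-0.75 to 0.18), so that a change of the size seen for FTL was outside the HPPE interval but changes of the size seen for TFRC were inside it. Ferroportin mRNA, which carries the same kind of 5′ element as the ferritin mRNAs, was not called, and the difference between it and them was not tested.

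The sensors showed no called change. ACO1 (ENSG00000122729.19, chr9:32384603-32454769, plus strand), a cytosolic aconitase that becomes an RNA-binding protein when it loses its iron-sulfur cluster, ranged from 32.9 to 41.5 CPM over the 12 libraries. Its log2 fold changes against DMSO were 0.02, -0.05 and -0.09 with HPPE, zinc and tin protoporphyrin. IREB2 (ENSG00000136381.13, chr15:78437431-78501456, plus strand), which is controlled mainly by degradation of its protein, ranged from 185.5 to 240.1 CPM, and its log2 fold changes were -0.07, 0.06 and -0.10. The 95% intervals for HPPE against DMSO ran from -0.19 to 0.23 for ACO1 and from -0.26 to 0.12 for IREB2, and did not reach the change measured for FTH1.

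**Figure D3:**
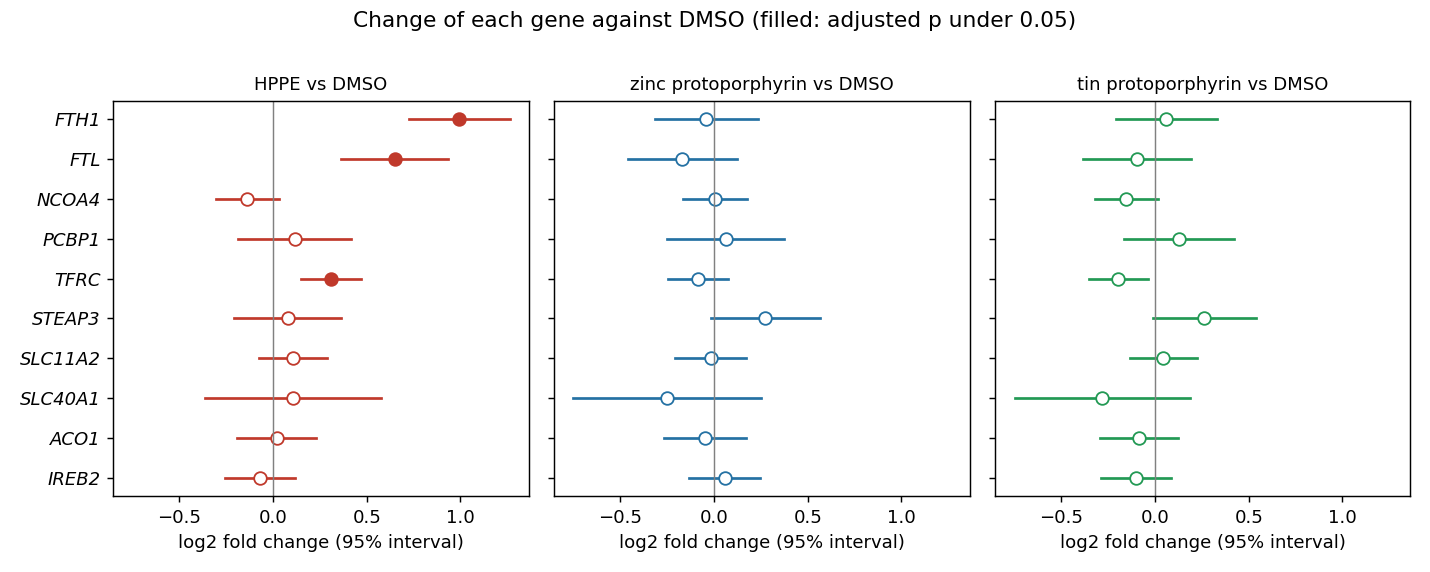
Log2 fold change of each of the 10 genes (rows) against DMSO for HPPE, zinc protoporphyrin and tin protoporphyrin (panels); points are edgeR estimates, lines are 95% intervals, and filled points have an adjusted p under 0.05. Filled points appear in the HPPE panel only, for FTH1 (0.99), FTL (0.65) and TFRC (0.31).

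Set directly against each metal protoporphyrin at the same dose and time, HPPE gave higher levels of the same 3 genes. Against zinc protoporphyrin, 3 of 10 genes were called higher, where 12.7% of all tested genes were called and 6.44% were higher with HPPE. The log2 fold changes were 1.04 for FTH1, 0.82 for FTL and 0.40 for TFRC (edgeR adjusted p = 0.00019, 0.00253 and 0.00683). Against tin protoporphyrin, 3 of 10 were called higher, where 1.45% of all tested genes were called and 0.745% were higher with HPPE. The log2 fold changes were 0.93 for FTH1, 0.75 for FTL and 0.51 for TFRC (edgeR adjusted p = 0.000441, 0.00675 and 0.000983). The other 7 genes did not pass against either compound. Against zinc protoporphyrin their log2 fold changes were 0.36 for SLC40A1, 0.13 for SLC11A2, 0.07 for ACO1, 0.05 for PCBP1, -0.13 for IREB2, -0.14 for NCOA4 and -0.20 for STEAP3. Against tin protoporphyrin they were 0.39 for SLC40A1, 0.11 for ACO1, 0.07 for SLC11A2, 0.03 for IREB2, 0.02 for NCOA4, -0.01 for PCBP1 and -0.18 for STEAP3. HMOX1 stood at 3.08 and 5.57 in these comparisons. They share the HPPE libraries with the comparison against DMSO and are not separate evidence. TFRC against zinc protoporphyrin was lost without HPPE library 2 or zinc protoporphyrin library 3, and FTL against tin protoporphyrin was lost without HPPE library 2 or 3, without tin protoporphyrin library 3 and with HPPE libraries 2 and 3 summed.

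Between the protoporphyrins, which hold different metals, edgeR called 0 of 10 genes, where it called 0.00611% of all tested genes. DESeq2 also called 0 of 10. At an unadjusted p under 0.05 stood 0 of 10 genes, beside 2176 of all 16366 tested genes. The log2 fold change of zinc against tin protoporphyrin was -0.10 (95% interval -0.37 to 0.17) for FTH1, -0.07 (-0.36 to 0.21) for FTL and 0.11 (-0.05 to 0.27) for TFRC. The intervals hold differences of either sign, and the result does not show that the compounds act alike. TFRC and NCOA4 libraries of the pair did not overlap, 2 of 10 genes, where 12.9% of all tested genes had ranges that did not. Both were higher with zinc protoporphyrin, with log2 fold changes of 0.11 and 0.16 (-0.01 to 0.33) that did not pass. The others were at 0.16 for IREB2, 0.04 for ACO1, 0.03 for SLC40A1, 0.01 for STEAP3, -0.06 for SLC11A2 and -0.07 for PCBP1, and HMOX1 was at 2.49.

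HMOX1, set beside the iron genes because its product releases iron from heme, measured 5.42, 4.62 and 7.66 CPM with DMSO and 331.5, 364.5 and 358.4 CPM with HPPE. It measured 67.8, 43.3 and 29.8 CPM with zinc protoporphyrin and 7.97, 7.20 and 6.96 CPM with tin protoporphyrin. Zinc protoporphyrin libraries thus all stood above DMSO for HMOX1 (log2 fold change 2.97 ± 0.27, SE), while FTH1 was at -0.04 (95% interval -0.32 to 0.23) and FTL at -0.17 (-0.46 to 0.12) in the same libraries. A rise of both HMOX1 and ferritin mRNA was seen with HPPE, where HMOX1 changed by 6.04 on the log2 scale. Whether the ferritin changes differ between these treatments is given by the direct comparison of HPPE with zinc protoporphyrin above. Heme oxygenase activity and release of iron were not measured, so more HMOX1 mRNA cannot be read as more iron freed from heme with any compound.

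Across the 12 libraries, the log2 CPM of FTH1 and FTL had a Pearson r of 0.95, FTH1 and TFRC 0.81, and FTL and TFRC 0.77. These are descriptions over libraries of 4 treatments and unequal depth, so that both genes of a pair meet the same treatment and depth in each library. Among 10420 tested genes outside the set with a mean of at least 10 CPM, the most similar to FTH1 were STIP1 (r = 0.98), MAFG (0.97) and HSPA5 (0.97). The most similar to FTL were CACYBP (0.98), HSPA9 (0.97) and PRDX1 (0.97), and to TFRC they were HSP90AB1 (0.97), MACO1 (0.96) and HSP90AA1 (0.96). Among these 9 genes, STIP1, HSPA5, HSPA9, HSP90AB1 and HSP90AA1 encode chaperones or co-chaperones, MAFG a small Maf transcription factor and PRDX1 a peroxiredoxin. For HPPE against DMSO, edgeR called 6 of these 9 genes higher: STIP1 (log2 fold change 0.58), MAFG (0.45), HSPA5 (0.69), CACYBP (0.56), PRDX1 (0.72) and HSP90AA1 (0.53), while HSPA9 (0.19), HSP90AB1 (0.23) and MACO1 (0.20) were not. Among all tested genes, 2.57% were called higher. The 9 genes were picked for likeness, over these same libraries, to genes that rose with HPPE. Calls among them were therefore likely from the start, and the count is not independent support.

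A wider list of 44 genes of iron handling was read by its counts. Of these, 31 passed the filter and 13 did not, among them TF, HAMP, HFE, CP, FTMT and ALAS2. Against DMSO, 0 of 31 were called with HPPE, 0 with zinc protoporphyrin and 0 with tin protoporphyrin by edgeR, with 4, 3 and 0 at an unadjusted p under 0.05, and DESeq2 called 0 in each. The background shares of adjusted calls are those given above, 4.04%, 2.25% and 2.28%. At an unadjusted p under 0.05 stood 2895, 3051 and 2410 of all 16366 tested genes, in the same order. The median log2 fold change of the list was -0.02, -0.12 and -0.07 in the same order, beside 0.02, -0.0038 and 0.0092 for all tested genes. A log2 fold change below 0 was found for 16 of 31 with HPPE, 24 of 31 with zinc protoporphyrin and 17 of 31 with tin protoporphyrin, beside 7814, 8273 and 7916 of all 16366 tested genes.

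The few genes of the list under an unadjusted p of 0.05 are named after their values were seen. With HPPE they were GLRX3, a cytosolic glutaredoxin with an iron-sulfur cluster (0.29), PCBP4 (0.29), STEAP1 (1.44, from 0.31 to 1.18 CPM) and NFS1, the cysteine desulfurase of cluster assembly (-0.38). With zinc protoporphyrin they were PCBP2 (-0.30), NFS1 (-0.37) and CIAO1 (-0.18). In the comparison of HPPE with zinc protoporphyrin, edgeR called GLRX3 (0.34) and PCBP4 (0.35) higher and EPAS1, which encodes HIF-2 alpha, lower (-0.28), 3 of 31 beside the background of 12.7%, and DESeq2 called EPAS1 only.

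**Figure D4:**
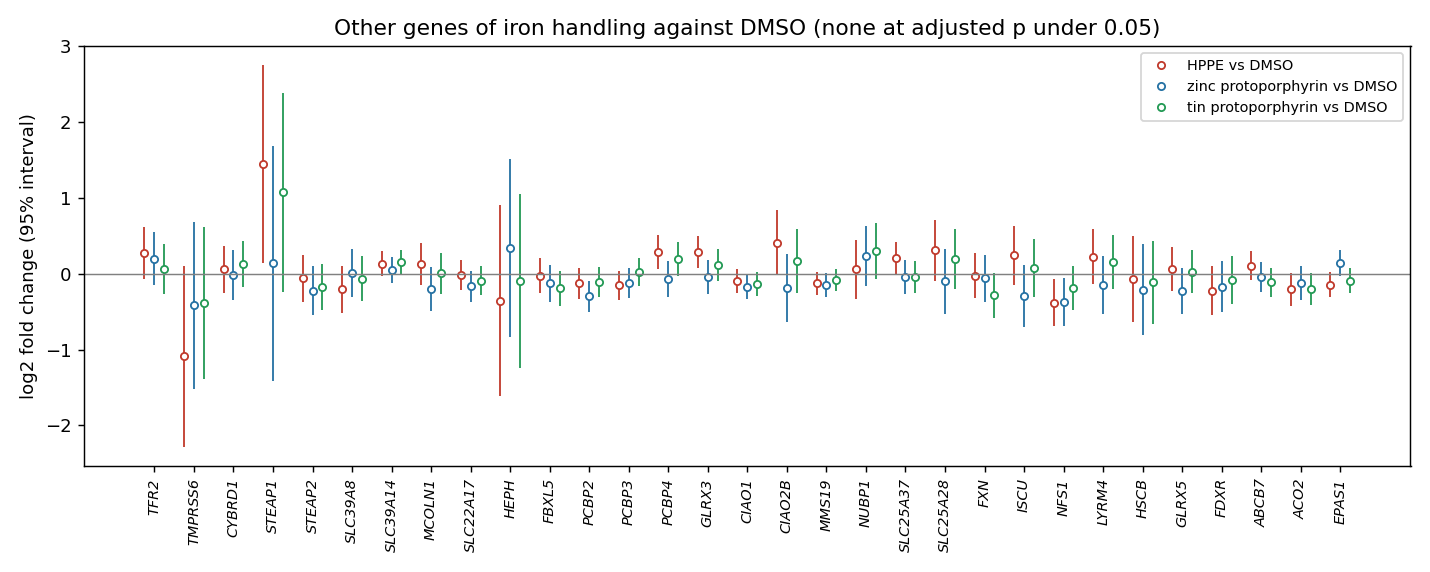
Log2 fold change against DMSO (y axis) of the 31 tested genes of the wider iron list (x axis) for HPPE, zinc protoporphyrin and tin protoporphyrin; points are edgeR estimates and lines 95% intervals. All points are open because 0 of 31 had an adjusted p under 0.05 in any of the 3 comparisons, and STEAP1, TMPRSS6 and HEPH have wide intervals at means near 1 CPM.

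**Figure D5:**
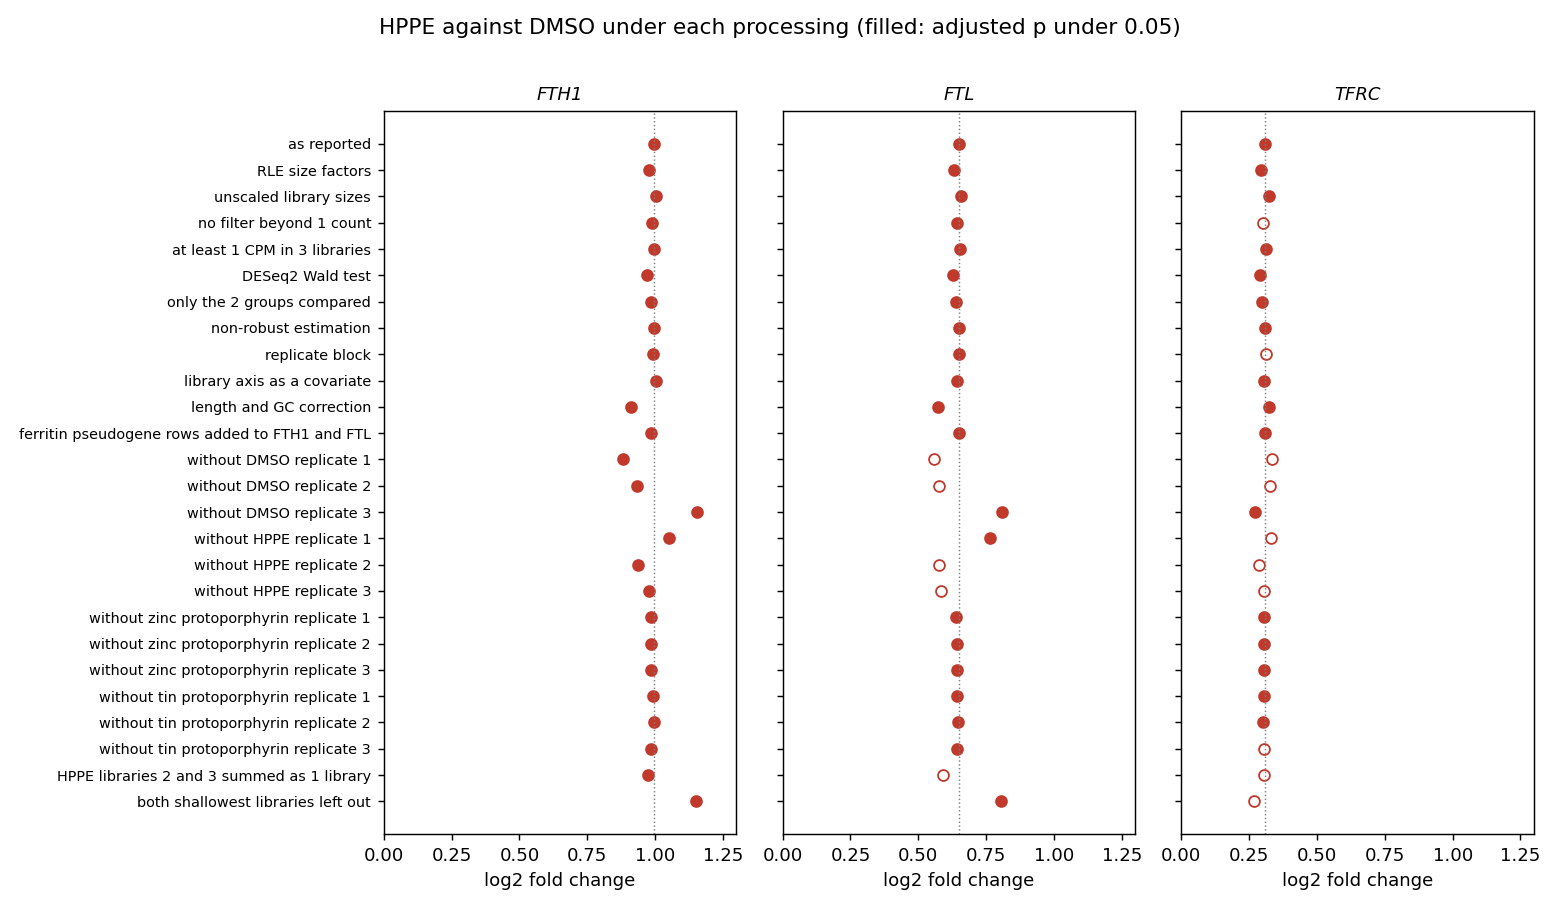
Log2 fold change of HPPE against DMSO (x axes from 0) for FTH1, FTL and TFRC (panels) as reported and under each of 25 alternatives (rows); filled points have an adjusted p under 0.05. FTH1 is filled in 25 of 25 alternatives, FTL in 20 and TFRC in 15.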

How the data were processed

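mRNA of SH-SY5Y cells was sequenced in 12 libraries, made with an MGIEasy kit per the labels' protocols. The authors deposited whole-number read counts per Ensembl gene, not normalized. The submitters' processing notes name fastp 0.21.1, STAR 2.7.7a, featureCounts and GRCh38; the annotation release, the use of strand and the treatment of reads with several matches are not given in the sources used here. Symbols were matched to 60481 of 60710 identifiers, and positions come from GENCODE 29 (GRCh38), which need not be the authors' annotation.

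Counts were tested with edgeR 4.0.16 (R 4.3.3): TMM, filterByExpr by group (16366 genes with 99.6% of counts), 1 mean per group over all 12 libraries, robust quasi-likelihood fit, 2-sided tests, Benjamini-Hochberg adjustment over all tested genes, and a call at an adjusted p under 0.05. The biological coefficient of variation was 0.0913. Errors of log2 fold changes are Wald standard errors of this fit, and 95% intervals use its degrees of freedom. Precision follows the depth per library of 1337028 to 9145399 counts, at which 3 counts equal 0.337 to 2.26 CPM. Ratios of 2 genes were tested with exact permutation over libraries. The procedure was tested on simulated counts.

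The rule named all 10 genes in every comparison, with HMOX1 beside them; genes of the wider list were to be named if called against DMSO, and 3 genes were named per called gene for the highest Pearson correlation over 12 libraries. The members and lists were chosen with earlier results of these data known. Alternatives were RLE factors, unscaled library sizes, no filter beyond 1 count, a filter of 1 CPM in 3 libraries, DESeq2 1.42.0, only the 2 groups compared, non-robust estimation, a replicate block, a library axis (first principal component of deviations from group means over 10972 genes) as a covariate, a length and GC correction (lowess, span 0.3, 98.9% of tested genes with values), pseudogene counts added, and each library left out. Summing HPPE libraries 2 and 3, and leaving out both shallowest libraries, were chosen after seeing the data.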

Additional observations from a re-analysis of the deposited data

How the results depend on the processing

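Of 60 comparisons of a gene between 2 groups, 9 were called. None of these 9 changed direction under any of the 25 alternatives run for each, and FTH1 was called in all 25 in each comparison with HPPE; the calls of FTL and TFRC that were lost are given above, and the cause was not tested. Of the 51 comparisons that were not called, 20 changed sign under some alternative and 4 became called with the library axis as a covariate: FTL for zinc protoporphyrin against DMSO (-0.16), TFRC for tin protoporphyrin against DMSO (-0.20), and IREB2 for HPPE against zinc protoporphyrin (-0.13) and for the 2 protoporphyrins (0.16). The axis was computed from the deviations of the same counts from their group means. It removes spread by construction, so calls made with it can be too many. The log2 differences of the ratios moved in all 48 alternatives by less than the larger of the 2 groups' SDs. The log2 difference of the FTH1 to FTL ratio from DMSO ranged from 0.27 to 0.40 with HPPE. It ranged from 0.054 to 0.17 with zinc and from 0.11 to 0.23 with tin protoporphyrin. For the TFRC to FTH1 ratio this log2 difference ranged from -0.88 to -0.53 with HPPE and from -0.46 to -0.10 with tin protoporphyrin. With zinc protoporphyrin it took both signs (-0.25 to 0.10). Depth limits the low genes most: SLC40A1 had 9 to 84 counts per library. With the library axis as a covariate 1 of the 10 for zinc protoporphyrin against DMSO, 1 of the 10 for tin protoporphyrin against DMSO and 1 of the 10 for the zinc and tin compounds were called. Among all 16366 tested genes, that setting called 4158, 2207 and 2350 in the same order. With HPPE libraries 2 and 3 summed 1 of the 10 for HPPE against DMSO were called, beside 384 of all tested genes. Leaving out each library in turn gave 1 to 3 of the 10 for HPPE against DMSO, beside 284 to 1106 of all tested genes. The replicate numbers gave no clear pairing of the libraries: 5 of 18 same-numbered pairs had correlated deviations over 0.1 (range -0.68 to 0.52), and 3 of 12 libraries correlated best with their own number. With 3 libraries a group these correlations cannot decide whether libraries of the same number shared a culture. The block is therefore an alternative only, with which FTH1 had a log2 fold change of 0.99 and FTL of 0.65 for HPPE against DMSO, both called. Over all tested genes, the counts called were 662 for HPPE against DMSO, 369 for zinc protoporphyrin against DMSO, 373 for tin protoporphyrin against DMSO, 2078 for HPPE against zinc protoporphyrin, 238 for HPPE against tin protoporphyrin and 1 for the zinc and tin compounds. Without a filter edgeR called 904 for zinc protoporphyrin against DMSO, 3186 for HPPE against zinc protoporphyrin, 420 for HPPE against tin protoporphyrin and 270 for the zinc and tin compounds. With at least 1 CPM in 3 libraries edgeR called 2 for the zinc and tin compounds. DESeq2 called 2 for the zinc and tin compounds. With only the compared groups in the fit edgeR called 131 for tin protoporphyrin against DMSO, 4267 for HPPE against zinc protoporphyrin and 144 for HPPE against tin protoporphyrin. With the replicate number as a block edgeR called 412 for HPPE against DMSO, 133 for zinc protoporphyrin against DMSO, 209 for tin protoporphyrin against DMSO, 758 for HPPE against zinc protoporphyrin and 139 for HPPE against tin protoporphyrin. With the library axis as a covariate edgeR called 2672 for HPPE against DMSO, 4158 for zinc protoporphyrin against DMSO, 2207 for tin protoporphyrin against DMSO, 5698 for HPPE against zinc protoporphyrin, 2594 for HPPE against tin protoporphyrin and 2350 for the zinc and tin compounds. With the length and GC correction edgeR called 1220 for HPPE against DMSO, 894 for zinc protoporphyrin against DMSO, 786 for tin protoporphyrin against DMSO, 498 for HPPE against tin protoporphyrin and 20 for the zinc and tin compounds. With HPPE libraries 2 and 3 summed edgeR called 384 for HPPE against DMSO, 458 for HPPE against zinc protoporphyrin and 119 for HPPE against tin protoporphyrin. Without both shallowest libraries edgeR called 183 for zinc protoporphyrin against DMSO. Leaving out each library in turn, the counts ran from 284 to 1106 for HPPE against DMSO, 72 to 750 for zinc protoporphyrin against DMSO, 146 to 627 for tin protoporphyrin against DMSO, 1 to 1453 for the zinc and tin compounds, 91 to 342 for HPPE against tin protoporphyrin and 173 to 3517 for HPPE against zinc protoporphyrin. The log2 fold changes that changed sign, none of them called, follow. With unscaled library sizes these were NCOA4 -0.013 (zinc protoporphyrin against DMSO), SLC40A1 -0.017, ACO1 -0.0074 and STEAP3 -0.033 (the zinc and tin compounds). Without a filter these were NCOA4 -0.029 (zinc protoporphyrin against DMSO), STEAP3 -0.022 (the zinc and tin compounds). With the library axis as a covariate these were PCBP1 -0.0039 (zinc protoporphyrin against DMSO). With the length and GC correction these were PCBP1 -0.0055 (HPPE against DMSO), FTH1 0.014 (zinc protoporphyrin against DMSO), PCBP1 -0.13 (HPPE against zinc protoporphyrin), NCOA4 -0.033 (HPPE against tin protoporphyrin), FTL 0.0084, ACO1 -0.095 and PCBP1 0.091 (the zinc and tin compounds). Without both shallowest libraries these were FTH1 0.0051 (zinc protoporphyrin against DMSO), FTL 0.062 (tin protoporphyrin against DMSO), SLC40A1 -0.0071 and STEAP3 -0.015 (the zinc and tin compounds). Over the removal of each library they ranged as given here. For zinc protoporphyrin against DMSO they were PCBP1 -0.028 to 0.18, SLC11A2 -0.053 to 0.017, NCOA4 -0.045 to 0.029, FTH1 -0.16 to 0.11 and IREB2 -0.0093 to 0.10. For tin protoporphyrin against DMSO they were FTH1 -0.050 to 0.22 and FTL -0.21 to 0.062. For HPPE against DMSO they were ACO1 -0.055 to 0.056. For HPPE against zinc protoporphyrin they were ACO1 -0.00078 to 0.12 and PCBP1 -0.075 to 0.13. For HPPE against tin protoporphyrin they were NCOA4 -0.027 to 0.089, PCBP1 -0.11 to 0.10 and IREB2 -0.034 to 0.10. For the zinc and tin compounds they were SLC40A1 -0.20 to 0.26, STEAP3 -0.041 to 0.044, ACO1 -0.020 to 0.086, FTH1 -0.21 to 0.0060, PCBP1 -0.17 to 0.057 and FTL -0.14 to 0.031.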
